A study of Mus musculus with 8 samples.

Results

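Imprinted genes are genes read mainly from the copy inherited from 1 parent. A list of 40 such mouse genes was followed here, 13 expressed from the maternal copy, 25 from the paternal copy and 2, Gnas and Inpp5f, whose active copy depends on the transcript. Members were matched to the rows of 2 expression tables, one for morulae and one for blastocysts, by Ensembl ID, and a member was used in a table where its mean over the 4 libraries was at least 10. This kept 31 members in morulae (9 maternally and 20 paternally expressed) and 29 in blastocysts (9 and 18), each with both Gnas and Inpp5f, of 19485 and 20348 genes listed. All 29 were also in use in morulae.

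The study knocked down Smarca5, also called Snf2h, in mouse preimplantation embryos and sequenced polyadenylated RNA from pools of 20 embryos. The 4 groups were NC morulae, KD morulae, NC blastocysts and KD blastocysts, with 2 libraries each. NC is the control label and KD the knockdown label. The sources used here do not give the mouse strain, the knockdown agent, the meaning of NC or the embryonic day of each stage (days 3.75 and 4.25 are named). No label places the libraries of a group in separate litters or cultures. The p-values thus rest on the spread between these few libraries, drawn toward that of genes at a similar level. That spread may be technical.

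In classical imprinting, DNA methylation set in the egg or sperm at an imprinting control region decides which parental copy stays silent. These marks survive the wave of demethylation after fertilization because proteins such as ZFP57 and ZFP445 recruit silencing factors to them. In non-canonical imprinting the maternal copy is instead marked in the egg by H3K27me3, a histone mark laid down by Polycomb proteins, and the paternal copy is the more active in the early embryo. Many imprinted genes act on growth, on the placenta or in the brain, and several are imprinted only in some tissues. The class of each gene is therefore its textbook class. The tables give RNA per gene, which does not tell the parental copies apart, so a higher level could come from either copy.

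Smarca5 was lower in KD at both stages: its normalized abundance was 9678 and 9760.5 in NC against 501 and 470.4 in KD morulae, and 6999.6 and 8283 against 906 and 855 in blastocysts (limma adjusted p = 0.000188 and 0.000593). Normalized abundance is the deposited value per gene, scaled within each table but not between them. The libraries held an estimated 13958296 to 23304923 reads. Changes are given as KD minus NC of log2(value + 1), so 1 is close to a doubling, and the pseudocount understates the change of low genes.

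No imprinted gene passed the test, fitted without a replicate block, at either stage. In morulae 0 of 31 members had an adjusted p under 0.05, where 0.00746% of all genes did, and the lowest adjusted p of a member was 0.402 (limma). The only gene that passed in morulae was Smarca5 itself. In blastocysts 0 of 29 passed, where 0.0879% of all genes did, and the lowest was 0.1. Without adjustment 3 of 31 members had p under 0.05 in morulae against 10.4% of all genes, and 7 of 29 in blastocysts against 17.6%.

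Separation of the libraries is given by direction as well as in total. Both KD libraries lay on one side of both NC libraries for 11 of 31 members in morulae, or 35.5%, against 41.9% of all genes. In blastocysts this held for 16 of 29, or 55.2%, against 49.5%. In morulae both KD libraries were higher for 7 members (22.6%, against 20.7% of all genes) and lower for 4 (12.9%, against 21.2%). In blastocysts they were higher for 12 (41.4%, against 24.6%) and lower for 4 (13.8%, against 24.9%). These shares were not tested. Separation with a difference of at least 1 was seen in blastocysts for Plagl1, Cd81, Usp29 and Phlda2, 4 of 29, against 8.07% of all genes. In morulae it was seen for Cdkn1c, Ndn and Rasgrf1, where the share of all genes was 6.68%. Ndn and Rasgrf1 reached the mean of 10 through their KD libraries alone, with NC means of 6.56 and 6.35, so the morula counts that hold them are no support for a difference. The median difference over all members was 0.01 in morulae and 0.15 in blastocysts, beside -0.01 and 0 over all genes tested, and no test was made over the list.

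**Figure D1:**
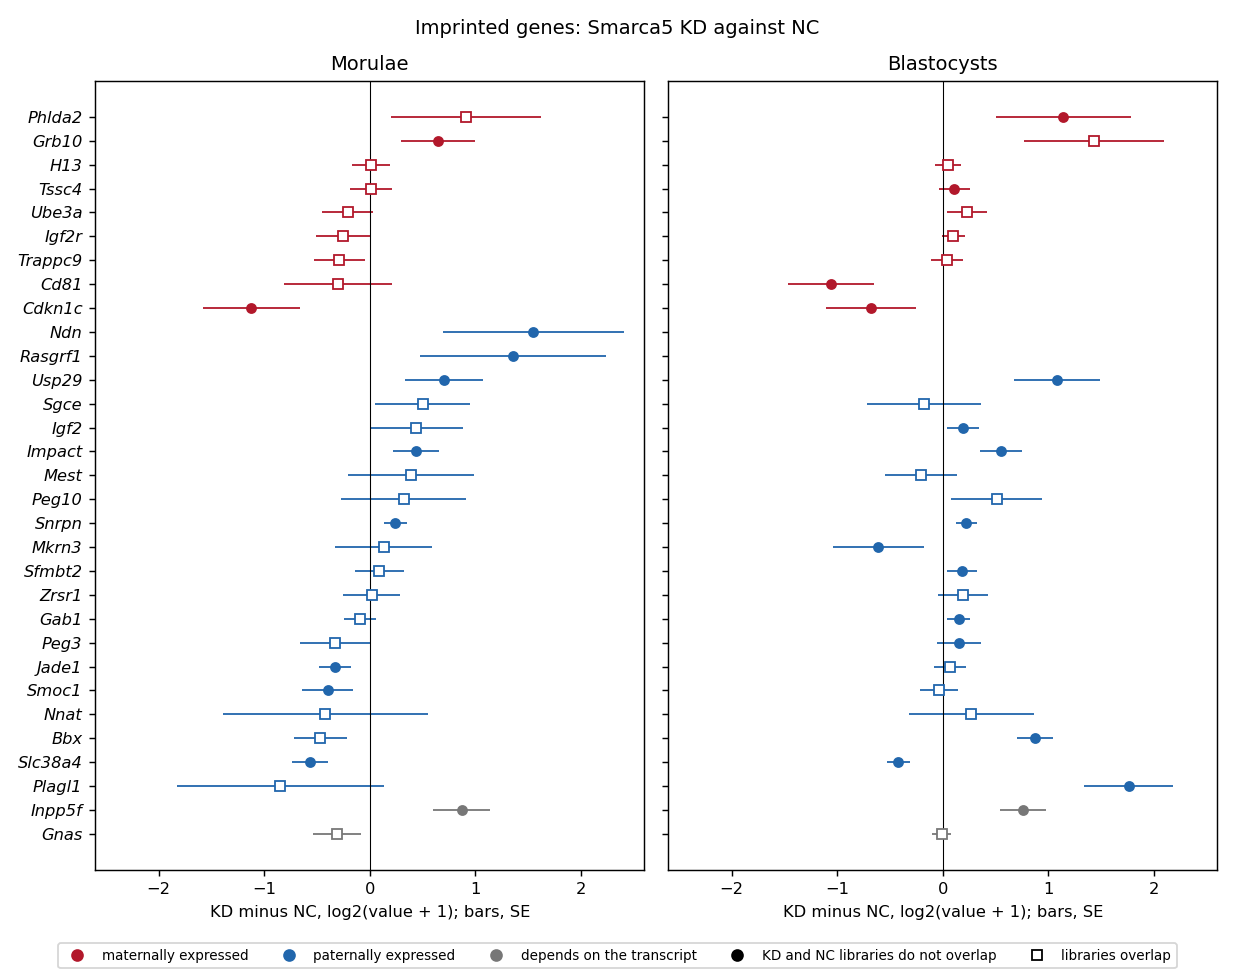
Difference between KD and NC for each imprinted gene in use, on the log2(value + 1) scale, in morulae (left) and blastocysts (right). Points are differences of 2 KD and 2 NC libraries, bars the SE from limma, filled circles genes whose KD and NC libraries do not overlap and open squares those that do; differences run from -1.12 (Cdkn1c) to 1.55 (Ndn) in morulae and from -1.06 (Cd81) to 1.76 (Plagl1) in blastocysts.

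Maternally expressed members had a median difference of -0.21 in morulae, with 4 of 9 above 0, and 0.1 in blastocysts, with 7 of 9 above 0. The morula median had the other sign without the second NC library (0.06) or without the first KD library (0.07). Paternally expressed members had medians of 0.11 in morulae (12 of 20 above 0) and 0.18 in blastocysts (13 of 18 above 0). Ndn and Rasgrf1, in use only through their KD libraries, are among the 12. The morula values of this class are therefore no support for a difference. With a mean of at least 50 the paternal median was 0.02 over 13 members in morulae and 0.19 over 15 in blastocysts. Library by library, each gene was set against its own NC mean, so the 2 NC medians mirror each other around 0 by construction. Distance of a KD median from the NC medians is therefore a description and no test. The maternal median was -0.11 and 0.11 in NC and -0.16 and 0.07 in KD morulae. The paternal median was -0.1 and 0.1 in NC and 0.07 and 0.17 in KD morulae. In each class 1 KD library lay within the range of the NC libraries. In blastocysts the NC libraries were at -0.03 and 0.03 in both classes, while KD stood at 0.16 and 0.06 for maternal and 0.14 and 0.27 for paternal members. The 2 classes were described side by side and not tested against each other.

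Within the paternal class, values of the 6 H3K27me3-type members and of the other 14 are set side by side, with no test between them. In morulae 5 of the 6 were lower in KD, with a median of -0.37, and 11 of the other 14 were higher, with a median of 0.36. Of the 6, Gab1 and Sfmbt2 changed sign when 1 library was left out, and Bbx had overlapping groups. Of the 11, Igf2, Peg10, Mest, Mkrn3 and Zrsr1 changed sign in that way, and Ndn and Rasgrf1 were in use only through their KD libraries. In KD morulae the H3K27me3-type median was -0.32 and -0.25 in the 2 libraries, below -0.06 and 0.06 in NC. For the other 14 it was 0.24 and 0.38 in KD and -0.2 and 0.2 in NC. In both subgroups the NC medians mirror each other by construction, as above. The 6 had a median level of 10.05 in morulae and the other 14 of 5.75, as log2(mean + 1). In blastocysts the medians of both subgroups were above 0, at 0.11 and 0.2, with 4 of 6 and 9 of 12 members higher.

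For 6 members, or 20.7% of 29, KD and NC libraries were apart in the same direction at both stages, against 18.9% of all genes. Inpp5f, Impact, Snrpn and Usp29 were higher in KD, where 9.41% of all genes were, and Slc38a4 and Cdkn1c were lower, where 9.54% were. None of the 29 was apart in opposite directions at the 2 stages, against 4.33% of all genes.

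Inpp5f encodes a phosphoinositide phosphatase, and its shorter variant, which starts within the gene, is the imprinted transcript (ENSMUSG00000042105; mm10 chr7:128611328-128696425, plus strand). Its abundance in morulae was 138 and 153 in NC against 235 and 303 in KD. In blastocysts it was 263 and 249 in NC against 365 and 519 in KD. Every KD library was above every NC library of its stage. The difference was 0.87 (SE 0.27, adjusted p = 0.402) in morulae and 0.76 (SE 0.22, adjusted p = 0.168) in blastocysts. The gene-level value does not say which variant the RNA came from.

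Impact, a paternally expressed inhibitor of the kinase GCN2, had values of 913 and 1306 in NC and 1317 and 1675 in KD morulae. The blastocyst values were 578 and 429 in NC and 815 and 649.8 in KD. The groups did not overlap, although the higher NC morula library lay just under the lower KD library. The differences were 0.44 (SE 0.22, adjusted p = 0.556) and 0.55 (SE 0.2, adjusted p = 0.239).

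Cdkn1c encodes p57, an inhibitor of cyclin-dependent kinases that restrains growth, and is expressed from the maternal copy (chr7:143458339-143461050, minus strand). The NC morula libraries held 92.6 and 213 and the KD ones 63.1 and 65.5. The NC blastocyst libraries held 56.2 and 111 and the KD ones 53.1 and 44.8. Both NC groups were wide, with their lower library close to KD, whereas the KD libraries lay near each other. The difference was -1.12 in morulae (SE 0.46, adjusted p = 0.48) and -0.68 in blastocysts (SE 0.43, adjusted p = 0.458).

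**Figure D2:**
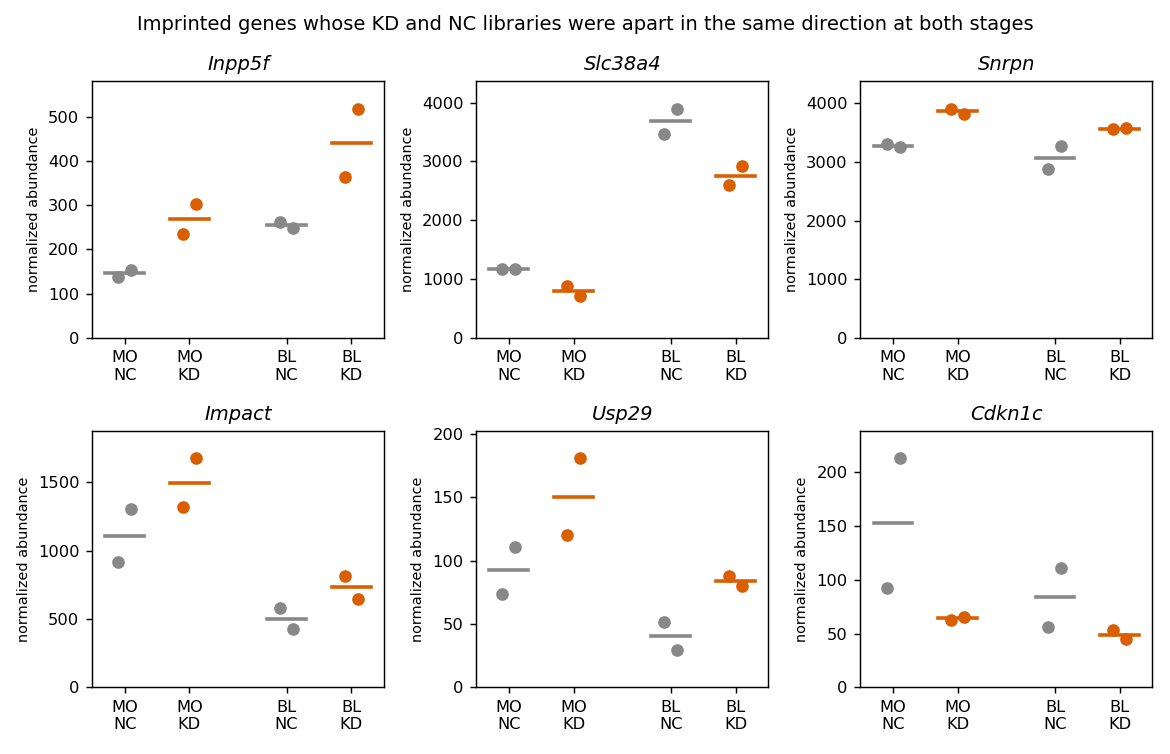
Normalized abundance in each library for the 6 imprinted genes whose KD and NC libraries did not overlap, in the same direction, at both stages. Points are libraries and lines the means of 2 (grey NC, orange KD; MO morulae, BL blastocysts); axes start at 0, and the tables of the 2 stages were scaled separately. KD is above NC for Inpp5f, Snrpn, Impact and Usp29 and below NC for Slc38a4 and Cdkn1c.

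The H3K27me3-type genes are Slc38a4, Sfmbt2, Gab1, Smoc1, Bbx and Jade1. Slc38a4 encodes an amino acid transporter needed in the placenta (ENSMUSG00000022464; chr15:96994820-97055956, minus strand). Its abundance in morulae was 1164 and 1167 in NC and 876 and 708 in KD, or 1166 ± 2.12 against 792 ± 118 (SD, n = 2). In blastocysts it was 3467 and 3901 in NC and 2594 and 2918 in KD, or 3684 ± 307 against 2756 ± 229 (SD, n = 2). All KD libraries were below all NC libraries of their stage. The difference was -0.57 (SE 0.17, adjusted p = 0.402) in morulae and -0.42 (SE 0.11, adjusted p = 0.144) in blastocysts.

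Slc38a4 has several RefSeq starts on GRCm38.p6. The 250 bases before the most upstream one (chr15:97055957-97056206, minus strand) are shown. Slc38a4 was chosen as the H3K27me3-type member whose KD libraries were apart at both stages. CpG dinucleotides, the sites of DNA methylation, are in capitals.
Slc38a4: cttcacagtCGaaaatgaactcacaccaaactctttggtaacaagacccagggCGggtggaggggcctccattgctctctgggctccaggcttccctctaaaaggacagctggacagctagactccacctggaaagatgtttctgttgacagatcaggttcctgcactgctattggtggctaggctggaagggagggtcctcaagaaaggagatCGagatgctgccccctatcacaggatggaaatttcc
The window held 3 CpG, where the median window of all genes held 6 and the median member window 11. The windows before its other RefSeq starts held 5 CpG each. This describes the letters only, since the tables hold no methylation or chromatin data.

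Sfmbt2 encodes a Polycomb group protein and carries a microRNA cluster in an intron. It had 504 and 578 in NC against 479.6 and 685 in KD morulae, and 1859.8 and 1850.2 against 1863 and 2365 in blastocysts. The morula groups overlapped, and in blastocysts the lower KD library exceeded the NC libraries by little (0.18, SE 0.14, adjusted p = 0.537). Smoc1, a secreted matricellular protein, had 263 and 247 in NC against 204 and 181 in KD morulae (-0.4, SE 0.24, adjusted p = 0.61). The blastocyst libraries held 347 and 404 in NC against 361 and 365 in KD, where the groups overlapped.

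Jade1 encodes a PHD finger protein of a histone acetyltransferase complex. It had 1193 and 1377 in NC against 1023 and 1019 in KD morulae (-0.33, SE 0.15, adjusted p = 0.529), with both KD libraries lower. At the blastocyst stage it had 1179 and 1249 in NC against 1457 and 1114 in KD, a wide KD group around the NC values. Gab1 encodes a docking protein of growth factor receptors and lies 24.9 kb from Smarca5 on chromosome 8, which makes it the member next to the targeted gene. Its values were 1548 and 1579.9 in NC against 1335 and 1619 in KD morulae, and 1515 and 1410.4 against 1602 and 1649.9 in blastocysts. The difference was -0.09 (SE 0.15, adjusted p = 0.887) in morulae, with overlap, and 0.15 (SE 0.11, adjusted p = 0.503) in blastocysts, without.

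Bbx, an HMG-box protein, was the member with the lowest adjusted p in blastocysts (ENSMUSG00000022641; chr16:50191844-50432390, minus strand). There it had 688 and 858 in NC against 1250.1 and 1582 in KD, or 773 ± 120.4 against 1416 ± 235 (SD, n = 2), with no overlap. The difference was 0.87 (SE 0.17, adjusted p = 0.1). In morulae it had 1171 and 1602 in NC against 801 and 1224 in KD, which overlapped (-0.47, SE 0.25, adjusted p = 0.583). The sign of its difference was thus opposite at the 2 stages.

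**Figure D3:**
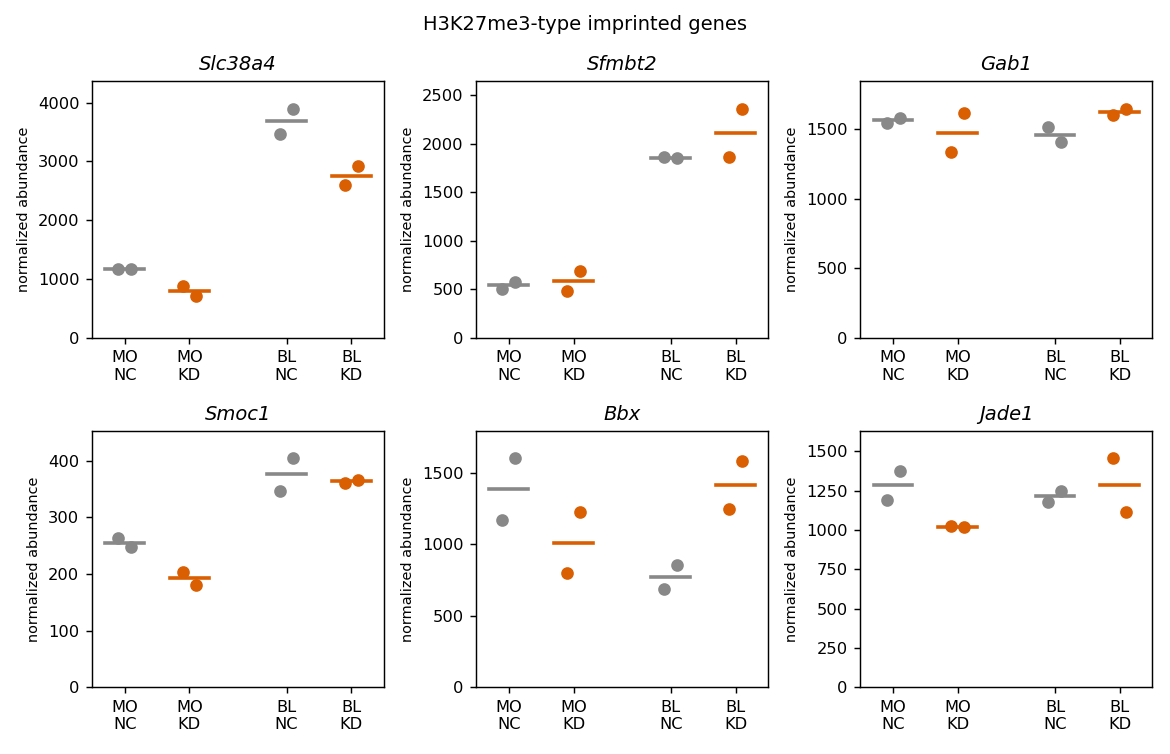
Normalized abundance in each library for the 6 H3K27me3-type imprinted genes. Points are libraries and lines the means of 2 (grey NC, orange KD; MO morulae, BL blastocysts), with axes from 0 and the 2 tables scaled separately; Slc38a4 is lower in KD at both stages, and Bbx is lower on average in KD morulae (1013 against 1387) and higher in KD blastocysts (1416 against 773).

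The difference between stages was tested directly, by subtracting the morula difference from the blastocyst difference, for the 29 members in use in both tables. No member passed, and 0.0% of the 12875 genes tested did (limma). At an unadjusted p under 0.05 there were 687 genes, or 5.34%, with Bbx and Plagl1 among the members. The Bbx change was 1.34 higher in blastocysts (SE 0.34, limma adjusted p = 0.834), and that of Plagl1 was 2.6 higher (SE 1.07, limma adjusted p = 0.905).

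Plagl1 encodes a zinc finger transcription factor that restrains proliferation (chr10:13060504-13131694, plus strand). In blastocysts it had 52.5 and 27.4 in NC against 118 and 145 in KD, the largest difference of any member there (1.76, SE 0.42, adjusted p = 0.124). Morulae held little of it, 8.59 and 25.2 in NC against 3.5 and 16.2 in KD. These groups overlapped, and the difference of -0.85 carried an SE of 0.98.

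The Prader-Willi/Angelman domain on chromosome 7 was the only one in which a maternally and a paternally expressed member both reached the mean of 10. Snrpn, the paternally expressed gene of the spliceosomal protein SmN, had 3299.8 and 3255 in NC against 3914 and 3815 in KD morulae. In blastocysts it had 2874 and 3279 in NC against 3558 and 3575 in KD. All KD libraries were higher, by 0.24 (SE 0.11, adjusted p = 0.545) and 0.22 (SE 0.1, adjusted p = 0.331). Snurf shares exons with Snrpn on the same strand, so reads can be split between the 2 genes.

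Ube3a, a ubiquitin ligase expressed from the maternal copy in neurons, had 1141 and 963 in NC against 1136 and 719 in KD morulae. In blastocysts it had 1141 and 1539 in NC against 1787 and 1360.2 in KD. The groups overlapped at both stages (-0.21, SE 0.24, and 0.23, SE 0.19). The ratio of Ube3a to Snrpn, a description only, was 0.346 and 0.296 in NC and 0.29 and 0.189 in KD morulae, and it overlapped between groups in blastocysts.

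Mkrn3 and Ndn, the other paternally expressed genes in use there, were low. Mkrn3, a ring finger protein, had 43.5 and 32 in NC against 38.5 and 43.5 in KD morulae. It had 69.1 and 45.4 against 31.5 and 41.6 in blastocysts, where both KD libraries were lower (-0.61, SE 0.43, adjusted p = 0.5). Ndn, the growth suppressor necdin, had 2.78 and 10.3 in NC against 20.2 and 16.3 in KD morulae (1.55, SE 0.86, adjusted p = 0.591). It stood between 3.12 and 4.37 in all 4 blastocyst libraries, under the limit for use. The directions within the domain were mixed, and Magel2 was not analysed here.

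Peg3 and Usp29 are paternally expressed neighbours whose starts face away from each other 146 bases apart on chromosome 7. Peg3 encodes a zinc finger protein that acts in growth and maternal behaviour, and Usp29 a ubiquitin-specific protease. The stretch between the annotated starts is shown because both genes share it. It is RefSeq sequence on GRCm38.p6, chr7:6730432-6730577, written on the plus strand, toward Usp29, with its 5 CpG in capitals.
Peg3-Usp29 stretch: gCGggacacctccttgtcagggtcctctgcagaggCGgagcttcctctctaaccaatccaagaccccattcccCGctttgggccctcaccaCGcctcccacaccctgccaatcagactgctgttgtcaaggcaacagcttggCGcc
Usp29 had 73.9 and 111 in NC against 120.3 and 181 in KD morulae, and 51.6 and 29.5 against 87.7 and 79.8 in blastocysts. KD was higher at both stages, by 0.7 (SE 0.37, adjusted p = 0.577) and 1.08 (SE 0.41, adjusted p = 0.25). Peg3 had 224 and 406 in NC against 222 and 261 in KD morulae, which overlapped, and 194 and 202 against 219 and 221 in blastocysts (0.15, SE 0.21, adjusted p = 0.745).

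The ratio of Usp29 to Peg3 was chosen after these values were seen and is given as a description. It was 0.329 and 0.273 in NC against 0.543 and 0.692 in KD morulae, and 0.266 and 0.146 against 0.4 and 0.362 in blastocysts. Both KD libraries were above both NC libraries at each stage. Zim1, the maternally expressed zinc finger gene beside Peg3, had a mean of 1.6 in blastocysts, under the limit for use, and was not analysed in morulae.

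The Kcnq1 domain holds maternally expressed growth restrainers on chromosome 7, with Cdkn1c described above. Phlda2, which limits placental growth, had 22.8 and 13 in NC against 56.4 and 19.4 in KD morulae, with overlap. In blastocysts it had 9.98 and 28.1 in NC against 30.7 and 47.9 in KD, the lower KD library standing just above the higher NC library (1.14, SE 0.64, adjusted p = 0.408). Cd81, a tetraspanin, had 112 and 186 in NC against 91.3 and 51.5 in KD blastocysts, both KD libraries being lower (-1.06, SE 0.41, adjusted p = 0.254). Its morula values of 43.4 and 83.6 in NC and 37.2 and 63.6 in KD overlapped. Tssc4, which acts in spliceosome assembly, differed by 0.01 (SE 0.2) in morulae and 0.11 (SE 0.15) in blastocysts. Cdkn1c and Cd81 were thus lower and Phlda2 higher within 1 domain. Slc22a18, a transporter, had means of 2.02 and 8.31 in the 2 tables, under the limit for use. In blastocysts it had 10.5 and 12.6 in NC against 3.1 and 6.99 in KD, both KD libraries being lower, and it was not tested. Kcnq1ot1, the paternal noncoding RNA of the domain, was not analysed here.

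Growth signalling genes were measured on both sides of the parental balance. Igf2, the paternally expressed growth factor, had 133 and 81.6 in NC against 102 and 198 in KD morulae, and 479 and 552 against 587 and 585 in blastocysts. The morula groups overlapped, and in blastocysts KD was higher by 0.19 (SE 0.15, adjusted p = 0.565). Igf2r, the maternally expressed receptor that removes IGF2, had 11618 and 17843 in NC against 9926 and 14839 in KD morulae and 7755 and 6689.7 against 8175 and 7245 in blastocysts, with overlap at both stages. H19 and Airn, the noncoding RNAs of these 2 domains, were not analysed here.

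Grb10, a maternally expressed adaptor that dampens insulin and IGF receptor signalling, had 103 and 83 in NC against 183 and 117 in KD morulae (0.65, SE 0.35, adjusted p = 0.582). In blastocysts it had 143 and 36.4 in NC against 288 and 133 in KD, where the lower KD library fell under the higher NC library (1.43, SE 0.66, adjusted p = 0.326). Ddc, which makes dopamine and serotonin, lies 32.4 kb from Grb10 and is imprinted in the heart. It had 127 and 74.2 in NC against 268 and 222 in KD morulae, and 238 and 193 against 573 and 473 in blastocysts. Both genes thus had higher KD means at both stages, and the Ddc difference of 1.27 in blastocysts (SE 0.21, adjusted p = 0.0805) had the smallest p among the other imprinted genes examined.

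Mest encodes a hydrolase-fold protein of mesoderm and placenta, and its promoter lies in a maternally methylated control region. It is shown because it was 1 of 4 members with the hexamer bound by ZFP57, TGCCGC, in the 250 bases before an annotated start. Capitals mark the hexamer, here in its reverse orientation GCGGCA, in RefSeq sequence on GRCm38.p6, chr6:30737800-30738049, plus strand.
Mest: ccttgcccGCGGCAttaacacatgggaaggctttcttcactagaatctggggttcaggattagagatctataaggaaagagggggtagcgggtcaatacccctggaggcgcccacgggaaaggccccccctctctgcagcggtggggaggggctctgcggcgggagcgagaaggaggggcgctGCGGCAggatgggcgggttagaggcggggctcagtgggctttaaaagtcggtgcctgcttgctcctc
The window held 2 matches. Over both strands 8.7% of 32817 promoter windows of all genes had at least 1 match, and so did 5 of 51 windows (9.8%) of the 31 members with a RefSeq window. Zim1, Plagl1 and Meg3 were the other 3 members. A match is a run of letters, and no binding was measured. Mest RNA was 56 and 20.1 in NC against 39.7 and 49.7 in KD morulae and 140 and 202 against 185 and 114 in blastocysts, with overlap at both stages.

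Peg10 and Sgce, paternally expressed from starts 98 bases apart on chromosome 6, encode a retrotransposon-derived protein needed in the placenta and epsilon-sarcoglycan. Peg10 had 22.4 and 28 in NC against 46.3 and 21.4 in KD morulae and 501 and 791 against 563 and 1432 in blastocysts. Sgce had 46 and 64.1 in NC against 58.3 and 103 in KD morulae and 45.1 and 27.6 against 21.8 and 44.1 in blastocysts. All 4 comparisons overlapped. One KD blastocyst library held 1432 of Peg10 and the other a value within the NC range.

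The remaining members differed little or were too spread to read. Gnas, the G protein alpha subunit gene, differed by -0.31 (SE 0.23) in morulae and -0.01 (SE 0.09) in blastocysts. Trappc9, a vesicle trafficking protein, H13, a signal peptide peptidase, and Zrsr1, a splicing factor-like gene, differed by -0.29 to 0.02 in morulae and 0.04 to 0.19 in blastocysts, all with overlap. Nnat, a small membrane protein, had 37.3 and 4.97 in the KD morulae around NC values of 20.8 and 17.7, so its mean was higher in KD (21.1 against 19.3) while its log2 difference was -0.42. Rasgrf1, a Ras exchange factor, had 2.72 and 9.98 in NC against 15.9 and 15 in KD morulae (1.36, SE 0.88, adjusted p = 0.642). Dlk1, a Notch-related ligand, was at means of 1.19 and 0.735, while the RNA of Meg3 and Peg13 was not analysed here.

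The mean of 10 decided the use of few members. Just inside were Rasgrf1 (10.9), Ndn (12.4) and Plagl1 (13.4) in morulae and Nnat (29.1) in blastocysts. Just outside were Slc22a18 (2.02) in morulae and Slc22a18 (8.31) and Rasgrf1 (6.12) in blastocysts. A low member could reach the limit through its higher group alone, as with Ndn and Rasgrf1, whose NC values in morulae were 10.3 or less, and Plagl1, whose KD mean there was 9.86. Slc22a18 in blastocysts, with an NC mean of 11.6 and a KD mean of 5.04, fell under the limit through its KD libraries.

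In control embryos, levels per kilobase of annotated exon spanned a wide range. In NC morulae Igf2r stood highest at 1248 and 1917 per kilobase, with Snrpn at 1528 and 1508, and these 2 overlapped. Gnas followed at 414 and 661, Gab1 at 305 and 311 and Slc38a4 at 273 and 274, each apart from the next. Rasgrf1 was lowest at 0.246 and 0.902. In NC blastocysts Snrpn led at 1331 and 1519, ahead of Slc38a4 at 814 and 915 and Igf2r at 833 and 719, which overlapped, and Usp29 was lowest at 2.86 and 1.63.

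Between stages the levels are set side by side as parts in 1000000 of each table's sum, with no test because the tables were scaled separately. Both NC blastocyst libraries were higher than both NC morula libraries for 10 of 29 members and lower for 11, against 39.8% and 28.0% of all genes. Peg10 stood furthest apart, at 1.29 and 1.57 in NC morulae and 26.3 and 41.9 in NC blastocysts, a ratio of means of 23.8. The ratio was 4.42 for Igf2, 4.13 for Mest, 3.18 for Sfmbt2 and 2.93 for Slc38a4. It was 0.407 for Usp29, 0.421 for Impact, 0.455 for Igf2r and 0.517 for Bbx.

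**Figure D4:**
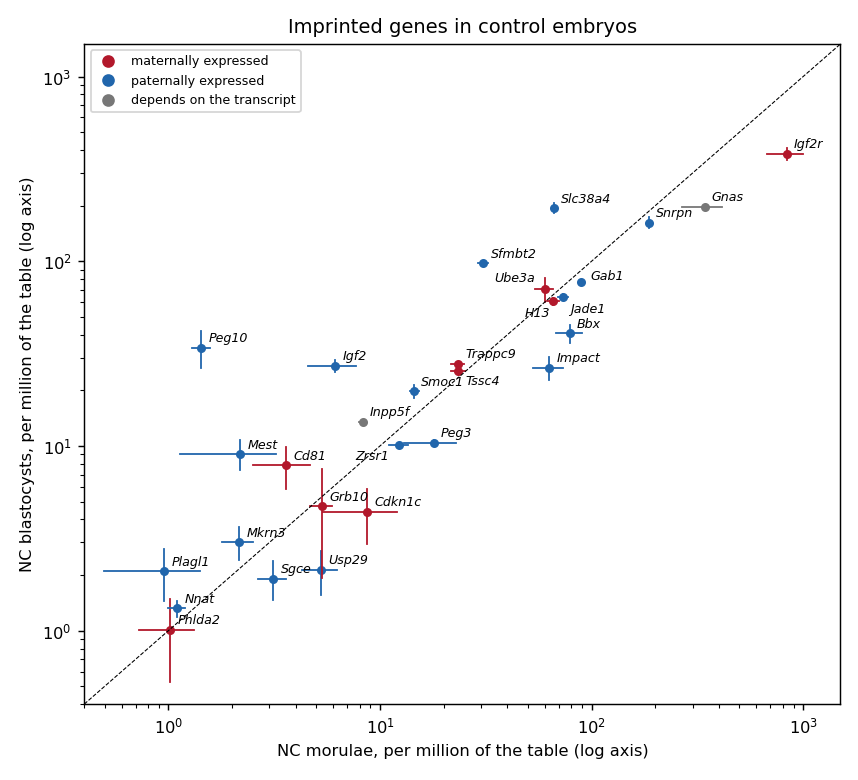
Level of each imprinted gene in NC morulae (x) and NC blastocysts (y), in parts per 1000000 of the table sum, both on log axes. Points are means of 2 libraries, lines run to the single libraries, colours give the textbook class and the dashed line marks equal values; Peg10 (1.43 against 34.1) lies furthest above it, and Usp29 (5.26 against 2.14) and Impact (63.1 against 26.5) are furthest below.

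Lineage markers are given because several imprinted genes are most active in extraembryonic cells. None of their markers passed the test at either stage (limma), and the share of all genes apart and higher in KD was 24.6% in blastocysts and 20.7% in morulae, and lower 24.9% and 21.2%. The summed trophectoderm markers were 104053 and 107029.8 in NC against 117120.4 and 135859.9 in KD blastocysts, with 9 of 17 markers apart and higher and 0 lower. Most of that sum was Krt8 and Krt18, at means of 42694 and 28510.2. Primitive endoderm markers summed to 72591 and 78794 against 81504 and 91664, with 8 of 17 higher and 0 lower. Lrp2, at a mean of 35159, was the largest part of that sum. Epiblast markers summed to 88453 and 94918 against 81279.7 and 85940.5, with 10 of 15 lower and 1 higher. Most of that sum was Tfcp2l1, Pou5f1 and Dppa5a, at means of 22513, 20735 and 18588. In morulae trophectoderm markers summed to 41654 and 37468 in NC and 36737 and 35579.9 in KD, with 1 of 17 higher and 4 lower. Primitive endoderm markers summed to 46095 and 43546 against 45492 and 52802, with 7 of 15 higher and 2 lower. Epiblast markers summed to 87197 and 84373 against 78469 and 77397, with 2 of 15 higher and 2 lower. The part of these markers in the imprinted gene values was not tested. Since these are pools of whole embryos, fewer cells of a type and less RNA per cell cannot be told apart.

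Markers of cells outside the embryo were mixed, and many were very low or not analysed here. Of the cumulus, granulosa and stromal markers, Fshr, Cyp19a1, Has2, Ptx3, Tnfaip6 and Dcn were not analysed here, and the summed level was 367 and 511 in NC against 471 and 518 in KD morulae and 332 and 395 against 257 and 465 in blastocysts. Most of that sum was Amhr2 (means of 262 and 104 in the 2 tables) and Inhbb (117 and 163). Col1a1 was at 17.3 and 39.8, Amh at 4.59 and 6.77, Inhba at 1.53 and 1.82 and Inha at 0.698 and 1.89. In blastocysts Col1a2 was at 5.41, Col3a1 at 0.867 and Lum at 1.27, and none of these was analysed in morulae. Foxl2 was at 38.9 and 28.9 in NC against 109 and 77.1 in KD morulae and at 16.3 and 25.1 against 63.9 and 42.6 in KD blastocysts, apart and higher at both stages. Amhr2 was at 279 and 325 in NC against 204 and 243 in KD morulae, apart and lower, and overlapped in blastocysts. Blood markers had means of at most 30.7 apart from Cd68, at 815 and 701. Of the oviduct and uterus markers, Ovgp1 was at means of 14.8 and 12.8 in the 2 tables and Muc1 at 16.5 and 40.6. Wfdc2 was at 67.5 and 689 and Epcam at 6007 and 21080.0. Pax8 was at 2.1 and 0.437 and Msx1 at 2.3 and 1.01, while Foxj1 and Ltf were not analysed here. The list summed to 20366 and 20645 in NC against 21333 and 24951 in KD blastocysts, and most of that sum was Epcam. None of the markers of these 3 lists passed the test, and their part in the imprinted gene values was not tested.

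Other imprinted genes, listed apart from the 40, gave no call. In morulae 22 were tested, 13 higher and 9 lower in KD with a median of 0.04, and in blastocysts 20, with 11 and 9 and a median of 0.04. None passed at either stage (limma). At an unadjusted p under 0.05 there were 4 at each stage, against 10.4% of all genes in morulae and 17.6% in blastocysts. The smallest p values in morulae belonged to Casd1, Ddc, Ago2 and Dio3, and in blastocysts to Ddc, Pon2, Zfp264 and Zdbf2.

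Casd1, a sialic acid acetyltransferase 31 kb from Sgce, had 50.7 and 49.9 in NC against 10.3 and 6.1 in KD morulae (-2.52, SE 0.6, adjusted p = 0.362), but 38.7 and 53.8 against 9.5 and 61.4 in blastocysts. One KD blastocyst library was therefore as low as the KD morulae and the other as high as NC. In morulae it was tested through its NC libraries, the KD mean of 8.18 being under the limit. Ago2, the slicing protein of RNA interference, which lies near Trappc9, had 17328 and 16698 in NC against 13970 and 12357 in KD morulae (-0.37, SE 0.11, adjusted p = 0.402), and overlapped in blastocysts. Dio3, which inactivates thyroid hormone, had 7.02 and 11.5 in NC against 27.3 and 51.4 in KD morulae (1.94, SE 0.66, adjusted p = 0.426). Its NC mean of 9.27 was under the limit, so it too was tested only through its KD libraries. Pon2, a lactonase, had 145 and 181 in NC against 342 and 397 in KD blastocysts (1.18, SE 0.22, adjusted p = 0.0987).

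Zfp264, annotated as a transcribed pseudogene 10 kb from Usp29, had 104 and 108 in NC against 30.7 and 46.5 in KD blastocysts (-1.47, SE 0.37, adjusted p = 0.138). Usp29 was higher in these KD blastocysts. In morulae, where Usp29 was also higher in KD, Zfp264 had 56.5 and 48.4 in NC against 21.3 and 58.1 in KD, with overlap. Zdbf2, a paternally expressed zinc finger gene, had 168 and 273 in NC against 122 and 110.2 in KD blastocysts (-0.88, SE 0.3, adjusted p = 0.215).

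Genes that protect or read imprints were listed separately, as DNA methyltransferases, their cofactors, TET enzymes, imprint-binding zinc finger proteins and histone modifiers. None of 27 passed in morulae (median 0.03, 14 higher and 13 lower) and none of 26 in blastocysts (median -0.06, 11 higher and 15 lower). At an unadjusted p under 0.05 (limma) there were 0 of 27 in morulae, against 10.4% of all genes. In blastocysts there were 8 of 26, against 17.6%. In morulae the smallest p belonged to Ehmt2, Tet1, Dnmt3l and Zfp445, with differences of 0.24, 0.37, 0.28 and 0.27 and adjusted p of 0.549 to 0.635.

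In blastocysts Zfp57, which binds the methylated copy of control regions, had 1577 and 1782 in NC against 965 and 1085 in KD, or 1679 ± 145 against 1025 ± 84.3 (SD, n = 2). Both KD libraries were lower, by -0.71 (SE 0.13, adjusted p = 0.0917). Uhrf1, which brings the maintenance methyltransferase to DNA, had 6563 and 6319 in NC against 4819 and 3976 in KD (-0.56, SE 0.11, adjusted p = 0.101). Smchd1, a chromatin protein of imprinted clusters and the inactive X, had 1109 and 1021 against 720.3 and 729 (-0.55, SE 0.13, adjusted p = 0.12). Dnmt3a, a de novo methyltransferase, had 2807 and 2374 in NC against 4125 and 3582 in KD (0.57, SE 0.12, adjusted p = 0.11). In morulae the same 4 genes differed by 0.17, 0.2, -0.06 and -0.15, with overlap for Zfp57, Smchd1 and Dnmt3a. Uhrf1 was apart and higher in KD morulae, the other direction from blastocysts, at 3088 and 2531 in NC against 3329 and 3099.9. The lower KD library stood just above the higher NC library.

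Several members have an annotated span, introns included, that overlaps the span of a gene on the other strand. The sources used here do not say whether counting used strand. Such overlap was found for Igf2 with Igf2os, Igf2r with Airn, Usp29 with Zim3, Tssc4 with Trpm5 and Cd81 with R74862. It was also found for Mest with Copg2, Nnat with Blcap, Zrsr1 with Commd1, Gnas with Nespas and Ube3a with Snhg14. Whether exons of these pairs overlap was not examined. Reads from any shared exon could not be told apart without strand. H13 with Mcts2 and Trappc9 with Peg13 overlap on 1 strand. Zrsr1 also has a related copy, Zrsr2. Values of these members are uncertain to that extent.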

How the data were processed

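Polyadenylated RNA of 8 pools of 20 embryos was measured. The authors deposited 1 table per stage, and its values are a normalized signal (here "normalized abundance") for each gene. Salmon 0.14.1 and DESeq2 were used with mm10, per the submitters' processing notes, without the role of each. Depth per library was estimated from the step between values of genes seen in 1 library alone, which were whole multiples of it in 94.9% to 100% of cases (tolerance 0.01). For genes seen in more than 1 library only 26.7% (morulae) and 24.8% (blastocysts) of low values were, so no count test was run. Each SE is that of limma, which draws the spread between libraries toward that of genes at a similar level. An SD is the spread between the libraries of its group.

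Ensembl IDs were matched to symbols and coordinates in GENCODE vM21 (98.9% of IDs in each table). The test was limma 3.58.1 (R 4.3.3; lmFit, eBayes with a mean-variance trend) on log2(value + 1), over all genes with a mean of at least 10, 13404 in morulae and 13651 in blastocysts, with Benjamini-Hochberg adjustment over all of them and a threshold of 0.05. The difference between stages was fitted on all 8 libraries and 12875 genes. With 2 libraries against 2 no permutation test could reach 0.05, so none is given. Simulated data with known changes were used to check the limma test. At a true difference of 1 it recovered 65% of changed genes in morulae and 69% in blastocysts. At a true difference of 2 it recovered 80% and 86%. The simulated spread depended on level alone, so recovery in the real libraries may be lower.

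The members, their classes and the gene lists were chosen with earlier results of these data known. Every library's value is given for members whose groups do not overlap and differ by at least 1 on the log2 scale, for the Prader-Willi/Angelman domain and for the H3K27me3-type genes, and other members were added after their values were seen. From the 2 related lists the 4 genes with the smallest p per stage are named. Other pseudocounts, filters, scalings, eBayes settings, a replicate block and leaving out each library were tried.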

Additional observations from a re-analysis of the deposited data

How the results depend on the processing

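The count of members that passed the test was 0 at each stage, and for the difference between stages, under every alternative tried except the replicate block. The numbers 1 and 2 of the titles are shared by groups, but no label says that they mark a shared litter or day. Replicate differences of NC and KD correlated across genes at 0.297 in morulae and 0.146 in blastocysts. With the replicate block the count of members was 3 in morulae (Slc38a4, adjusted p = 0.0284, Inpp5f, 0.0407, and Bbx, 0.0466), where 6.65% of all genes passed, and 6 in blastocysts (Bbx, 0.00445, Slc38a4, 0.0164, Grb10, 0.0263, Plagl1, 0.032, Impact, 0.0406, and Inpp5f, 0.0474), where 8.85% did. Without the block, the adjusted p of Slc38a4, Inpp5f and Bbx ran from 0.136 to 0.965 in morulae and from 0.0932 to 0.484 in blastocysts over all other alternatives.

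Leaving out each library in turn left 1 library in a group, assumed to vary like the other group. The maternal median then ran from -0.16 to 0.07 in morulae and from 0.06 to 0.16 in blastocysts, and the paternal median from 0.01 to 0.17 and from 0.14 to 0.27. Members without overlap numbered 15 to 26 in morulae and 21 to 24 in blastocysts, since fewer libraries overlap less often. No other alternative changed the sign of a member's difference.

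Leaving out 1 library did so for 16 members in morulae. Their differences ran from -0.64 to 0.03 for Gnas, -0.75 to 0.1 for Peg3, -0.56 to 0.06 for Igf2r, -0.04 to 0.92 for Igf2, -0.54 to 0.12 for Ube3a, -1.81 to 0.12 for Plagl1, -0.77 to 0.16 for Cd81, -0.22 to 0.86 for Peg10, -0.23 to 0.05 for Gab1, -0.33 to 1.11 for Mest, -0.17 to 0.34 for Sfmbt2, -0.09 to 0.34 for Mkrn3, -0.16 to 0.19 for H13, -0.17 to 0.21 for Zrsr1, -1.76 to 0.92 for Nnat and -0.1 to 0.12 for Tssc4. In blastocysts they ran from -0.16 to 1.18 for Peg10, -0.01 to 0.2 for Igf2r, -0.01 to 0.39 for Zrsr1, -0.56 to 0.14 for Mest, -0.37 to 0.9 for Nnat, -0.12 to 0.26 for Jade1, -0.02 to 0.12 for H13, -0.15 to 0.07 for Smoc1, -0.67 to 0.31 for Sgce, -0.03 to 0.11 for Trappc9 and -0.07 to 0.06 for Gnas.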
